A study of Mus musculus with 4 samples.

Results

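Accessible regions lying deep inside long genes were examined in hair follicle stem cells of the mouse. A region, or peak, belonged to this class when its midpoint lay inside a protein-coding gene longer than 150 kb on chromosomes 1 to 19. The midpoint also had to lie more than 50 kb from both bounds of that gene and over 1 kb from the bounds of every other annotated gene. Such regions are called deep peaks here, and the stretches of the genome that meet the same conditions are called deep ground. The rule used positions only and no measured signal. It found 8178 deep peaks, 11.4% of the 72012 peaks on these chromosomes (exact 95% interval 11.1 to 11.6) and 10.9% of all 74777 regions of the series.

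ATAC-seq marks open chromatin by letting a transposase cut and tag DNA that nucleosomes leave exposed. The cells were sorted from back skin of female mice at postnatal day 30 by a K14-H2BGFP reporter, absence of Sca-1, and presence of CD34 and CD49f. The knockout carried K14-H2BGFP, K14Cre and Foxc1 fl/fl, so that Cre is driven by the keratin 14 promoter, which is active in basal epithelial cells and not only in stem cells. The control carried K14-H2BGFP and Foxc1 fl/fl without Cre, so both groups share the reporter and the floxed alleles. Each genotype was 1 library sequenced in 2 runs, and all 4 runs share 1 list of regions with no score, read count or genotype. With no value per genotype or run, genotypes are not compared and nothing is tested over samples, so every value below describes this single list. Depth is unknown, so a stretch without peaks may be closed or below detection, and intervals cover counting error only.

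Long genes carry most of their length in introns, and introns hold many of the enhancers that act on the gene itself or on its neighbours. They also hold alternative promoters, from which shorter forms of the protein are made. In hair follicle stem cells, transcription factors such as RUNX1, p63, FOXP1 and NFIB control quiescence, activation and epithelial identity, and several of their genes are long. The long structural genes of these cells encode plakins, laminin chains and polarity proteins that anchor the cell to the basement membrane and to its neighbours. Genes of neuronal adhesion and synapse proteins are among the longest in the genome and are known mainly from the nervous system.

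Deep peaks that lay on an annotated internal transcription start are shown first, since these are the members whose DNA sequence was at hand. Each window runs from 250 bases before to 50 bases after a start in RefSeq (GRCm38.p6, the primary coordinates of mm10) and is written 5′ to 3′ in the direction of the gene. Capitals mark CG (CpG) steps, which are counted below for open and closed windows. Runx1 and one of the Foxp1 starts are CG-rich, the 2 internal starts of Dst are of either kind, and a pair of neighbouring Magi1 starts shows one inside a deep peak and one outside.
Runx1, open, chr16:92697280-92697579, minus strand: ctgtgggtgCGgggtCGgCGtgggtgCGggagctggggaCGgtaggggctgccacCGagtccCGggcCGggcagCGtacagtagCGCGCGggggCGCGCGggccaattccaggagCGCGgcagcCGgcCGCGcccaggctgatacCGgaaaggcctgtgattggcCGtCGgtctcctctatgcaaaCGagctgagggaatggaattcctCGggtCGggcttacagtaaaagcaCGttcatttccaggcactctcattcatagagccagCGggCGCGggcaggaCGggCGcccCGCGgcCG
Foxp1, open, chr6:99028249-99028548, minus strand: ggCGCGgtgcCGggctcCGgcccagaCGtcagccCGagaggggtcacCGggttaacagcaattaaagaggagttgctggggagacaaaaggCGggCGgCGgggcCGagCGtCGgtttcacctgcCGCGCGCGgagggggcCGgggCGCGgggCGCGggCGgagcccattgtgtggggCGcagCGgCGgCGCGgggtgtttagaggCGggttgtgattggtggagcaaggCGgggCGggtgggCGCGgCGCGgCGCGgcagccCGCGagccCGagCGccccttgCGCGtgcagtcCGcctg
Dst, CG-rich start, open, chr1:34011345-34011644, plus strand: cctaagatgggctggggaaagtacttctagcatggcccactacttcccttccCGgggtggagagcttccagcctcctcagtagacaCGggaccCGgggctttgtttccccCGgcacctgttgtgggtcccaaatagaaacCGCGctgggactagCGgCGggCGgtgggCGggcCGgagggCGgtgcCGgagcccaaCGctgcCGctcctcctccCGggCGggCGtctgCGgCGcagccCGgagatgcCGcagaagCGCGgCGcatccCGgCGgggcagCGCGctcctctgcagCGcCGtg
Dst, CG-poor start, open, chr1:34160010-34160309, plus strand: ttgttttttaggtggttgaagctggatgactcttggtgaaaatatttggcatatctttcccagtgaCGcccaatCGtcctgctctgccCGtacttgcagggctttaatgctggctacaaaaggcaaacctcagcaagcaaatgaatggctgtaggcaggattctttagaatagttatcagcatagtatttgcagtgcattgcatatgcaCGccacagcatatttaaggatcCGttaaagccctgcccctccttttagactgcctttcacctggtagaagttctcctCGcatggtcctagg
Magi1, open, chr6:93912914-93913213, minus strand: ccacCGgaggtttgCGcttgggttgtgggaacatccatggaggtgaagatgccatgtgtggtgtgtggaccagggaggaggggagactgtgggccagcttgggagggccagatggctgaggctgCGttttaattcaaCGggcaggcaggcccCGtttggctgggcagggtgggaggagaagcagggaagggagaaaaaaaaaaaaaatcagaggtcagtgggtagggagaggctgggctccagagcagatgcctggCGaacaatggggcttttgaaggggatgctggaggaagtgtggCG
Magi1, not open, chr6:93913641-93913940, minus strand: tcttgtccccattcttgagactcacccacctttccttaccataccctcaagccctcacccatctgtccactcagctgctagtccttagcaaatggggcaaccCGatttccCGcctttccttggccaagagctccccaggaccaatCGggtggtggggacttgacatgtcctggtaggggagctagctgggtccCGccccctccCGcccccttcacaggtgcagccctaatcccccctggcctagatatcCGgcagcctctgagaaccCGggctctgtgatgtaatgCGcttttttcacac
Daam1, open, chr12:71889293-71889592, plus strand: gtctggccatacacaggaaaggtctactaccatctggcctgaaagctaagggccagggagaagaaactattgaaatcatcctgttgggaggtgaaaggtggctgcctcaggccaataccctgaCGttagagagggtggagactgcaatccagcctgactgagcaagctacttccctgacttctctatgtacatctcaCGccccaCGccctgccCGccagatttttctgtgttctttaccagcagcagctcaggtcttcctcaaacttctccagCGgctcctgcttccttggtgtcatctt

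Most deep peaks lay on no start window of the RefSeq table, which does not hold every gene. Only 113 of the 8178 deep peaks (1.38%, exact 95% interval 1.14 to 1.66) touched a start window of any gene by at least 1 base, and 8065 (98.6%) touched none. The rule largely leaves out outermost starts in advance, as deep peaks lie over 50 kb from the bounds of their gene. They also lie over 1 kb from the bounds of other genes. The low share is thus in part set by the rule, and the share among all peaks is not given here. Of 325 start windows that long genes have in deep ground, 103 (31.7%, exact 95% interval 26.7 to 37.1) were touched by a deep peak, in 92 of 240 genes. Over all 31396 start windows on these chromosomes the share was 41.6%. For the same class of genes the share was 40.7% of 344 windows that start 1 to 50 kb inside the gene and 61.5% of 885 windows that start at a gene bound. Of these classes of long-gene starts the deep one had the lowest share, but its interval overlapped that at 1 to 50 kb (35.5 to 46.1). Windows of the same gene are not independent, and the classes were not matched for CG content. Starts of other annotated genes in deep ground were touched in 9 of 73 cases (12.3%). By the definition of deep ground these lie over 1 kb from the bounds of those genes, so their outermost starts are not among them. Deep peaks on a start window had a median width of 1159 bp, against 515 bp for the deep peaks on none. A wide peak is more likely to touch a window than a narrow one, and how far this sets the difference was not tested.

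Open internal starts were richer in CG steps than closed ones. The median was 12 CG steps per 300 bp window in the 103 open windows and 5 in the others, and the median GC content was 56.7% against 48.0%. Among deep windows with 0 to 4 CG steps 8 of 102 were open (7.84%), with 5 to 9 steps 34 of 110 (30.9%), with 10 to 19 steps 30 of 66 (45.5%), and with 20 or more 31 of 47 (66.0%). Over all start windows the shares rose from 7.91% through 24.4% and 66.4% to 84.8%. At 10 or more CG steps deep starts were thus open less often than start windows in general, and the exact intervals did not meet (33.1 to 58.2 against 65.1 to 67.7 for 10 to 19 steps).

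**Figure D1:**
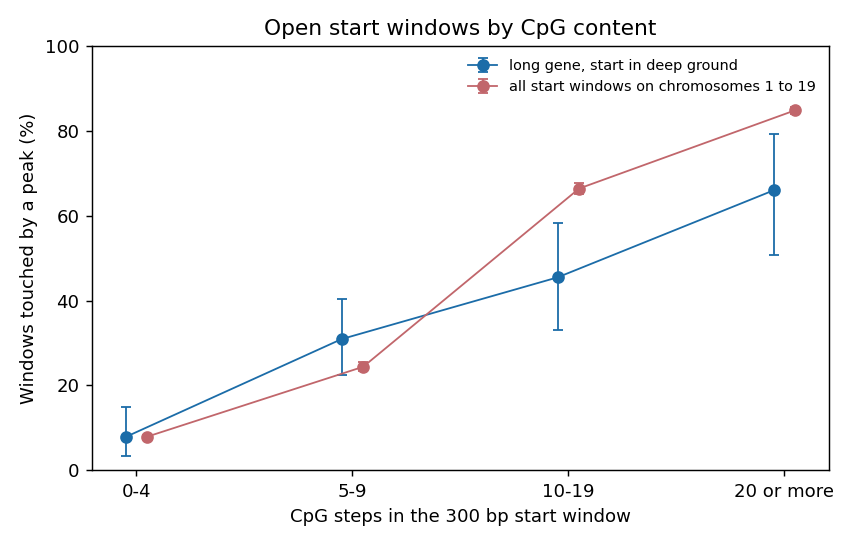
Share of 300 bp start windows touched by a peak (vertical axis, percent) by the number of CG steps in the window (horizontal axis). Blue points are starts of long genes in deep ground and red points all start windows on chromosomes 1 to 19, with exact 95% intervals; both rise with CG content, from 7.84% to 66.0% and from 7.91% to 84.8%.

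A set of short motifs was searched on both strands of the windows. They were TGANTCA of AP-1, TGTTTAC of forkhead factors, TGTGGTT of RUNX factors, TATAAA, the GC box GGGCGG and CCGGAAG of ETS factors. None of them contains another, though matches to different motifs may share bases at their ends. The GC box stood in 39 of 103 open deep windows (37.9%), in 40 of 222 closed ones (18.02%) and in 36.0% of all windows. TATAAA stood in 6.80% of open and 14.9% of closed deep windows, against 13.6% of all. The AP-1 letters were found in 12.6% of open, 8.11% of closed and 7.84% of all windows, and those of RUNX in 5.83%, 4.05% and 5.32%. The forkhead letters occurred in 2 open and 11 closed windows (1.94% and 4.95%, against 3.71% of all). ETS letters occurred in 1.94% of open and 0.901% of closed deep windows, against 9.004% of all. These matches describe the letters in the windows and are not binding sites.

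In 42 of the 92 genes with an open deep start, the outermost start of the gene had no peak within 1 kb, and in 50 it had one. Among all 1051 long genes with a known strand, 398 had no peak there and 653 (62.1%) had one. Runx1, which encodes a factor of hair follicle stem cell activation, was of the first kind. Its internal start at 92697329 lay in a deep peak 1893 bp wide (92696526 to 92698418), while neither bound of the gene (chromosome 16, 92601466 to 92826074) had a peak. The window held 35 CG steps. Tjp1, the gene of the tight junction protein ZO-1, likewise had a peak of 950 bp on the internal start at 65371244 of chromosome 7 and none at its bounds. Nav2, Etl4, Zfhx3 and Frmd4a were further genes of this kind, with 45, 44, 21 and 16 deep peaks in all. Foxp1, a forkhead gene tied to stem cell quiescence, had open windows at 2 deep starts and a peak at its outermost start. The CG-rich start lay in a peak of 1018 bp from 99027717 to 99028734, and the other, with 5 CG steps, was touched by a peak of the smallest width in the list, 200 bp.

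Dst encodes dystonin, whose epithelial form ties keratin filaments to hemidesmosomes. Both of its deep starts were open. The start at 34011595, with 31 CG steps, lay in a peak of 870 bp, and the start at 34160260, with 6 CG steps, in a peak of 1368 bp from 34159446 to 34160813. The second lay among the densest peaks of the gene. In Magi1, a scaffold gene of cell junctions, a peak of 1270 bp from 93912028 to 93913297 took in the start at 93912963 and ended before the window of the start at 93913690. The 2 windows had 7 and 8 CG steps. Daam1 encodes a formin of planar cell polarity signalling, and its CG-poor internal start with 5 steps lay in a peak of 5607 bp from 71884763 to 71890369, among the widest deep peaks.

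Deep ground of the 1391 long genes, 6.73% of the 20661 protein-coding genes on these chromosomes, came to 331.1 Mb, and the deep peaks covered 1.66% of it. Deep ground held 24.7 peaks per Mb (exact Poisson 95% interval 24.2 to 25.2). The outer ground of the same genes, from 1 to 50 kb inside a bound, held 31.4 per Mb (30.4 to 32.3). Pooled over all genes, the deep density was thus 0.787 times the outer one (95% interval 0.758 to 0.818). Longer genes weigh more in the deep than in the outer ground, so this ratio also compares genes of different length. By distance from the nearer bound, density was 38.3 peaks per Mb at 1 to 10 kb, 30.6 at 10 to 25 kb, 29.3 at 25 to 50 kb and 30.4 at 50 to 100 kb. It was 24.3 at 100 to 200 kb and 18.2 farther in. There was no step at the limit of the rule, with 30.0 per Mb (27.1 to 33.1) at 45 to 50 kb and 32.9 (29.9 to 36.1) at 50 to 55 kb.

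Only the longest genes reach the last bins, so the fall over distance also compares different genes. In the 337 genes over 400 kb, which fill every bin, density was 30.9 per Mb at 1 to 10 kb and 21.5 at 10 to 25 kb. It was 21.6 at 25 to 50 kb, 23.8 at 50 to 100 kb, 20.8 at 100 to 200 kb and 18.2 beyond. Beyond the first 10 kb, density in these genes thus stayed between 18.2 and 23.8 per Mb. By gene length, the pooled deep density was 32.5 per Mb in genes of 150 to 250 kb, 28.3 at 250 to 500 kb, 20.8 at 500 to 1000 kb and 16.1 above 1000 kb. The outer density fell along with it, from 35.6 through 29.2 and 24.6 to 18.1 per Mb. In each of these classes the deep density was nearer to the outer one than in the ratio pooled over all genes. Medians over genes moved less, with deep densities of 19.03, 19.5, 15.9 and 14.9 per Mb in the same classes, and across genes deep density and length had a Spearman rank correlation of 0.000771. In the 55 genes above 1000 kb the median deep density of 14.9 was above the median outer one of 10.4. Gene by gene, the deep density was below the outer one in 681 genes, above it in 610 and equal in 100. Across the 1391 genes, which are not independent, deep and outer density had a Spearman rank correlation of 0.508.

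Between genes density fell more steeply with distance from the nearest annotated gene. It was 28.9 per Mb at 1 to 10 kb, 24.4 at 10 to 25 kb, 19.2 at 25 to 50 kb, 13.98 at 50 to 100 kb, 11.0 at 100 to 200 kb and 5.80 beyond. At more than 50 kb from a bound, ground inside long genes held more peaks per Mb in every bin than ground between genes, with 18.2 (17.4 to 19.1) against 5.80 (5.28 to 6.36) beyond 200 kb. The distances are unlike, however. Inside long genes the distance is to the bounds of that gene, and bounds of other genes may lie as near as 1 kb. Between genes it is to the nearest of all annotated genes. For the 1051 long genes with a known strand, density was 33.6 per Mb in the outer ground on the start side and 28.4 on the end side. In deep ground it was 24.0 in the part nearer the start (23.1 to 24.9) and 25.2 in the part nearer the end (24.4 to 26.1), intervals that overlap.

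**Figure D2:**
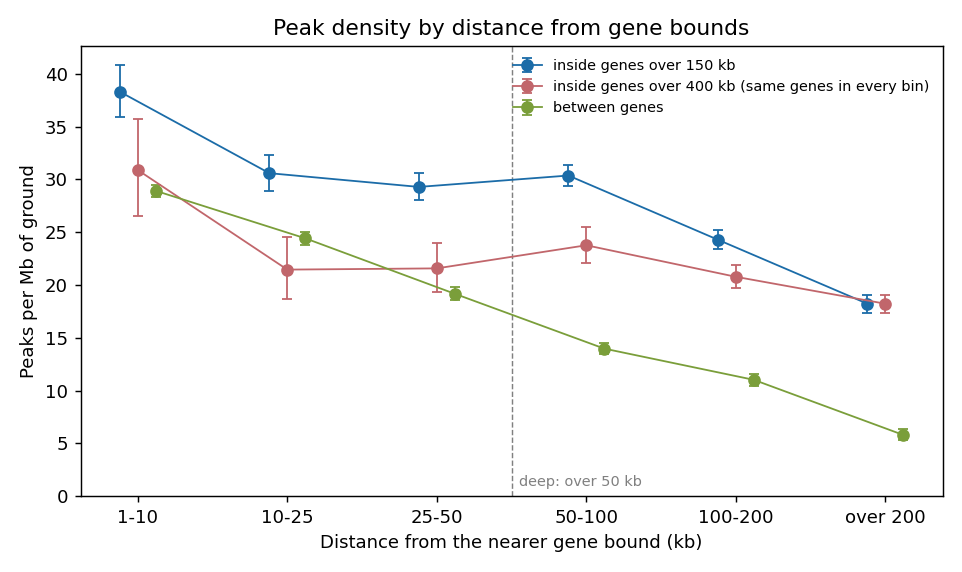
Peaks per Mb of ground (vertical axis) by distance from the nearer gene bound in kb (horizontal axis, unequal bins), with exact Poisson 95% intervals. Inside genes the distance is to the bounds of that gene, and between genes to the nearest of all annotated genes. Blue is the inside of genes over 150 kb, red the inside of genes over 400 kb, green the ground between genes; beyond 50 kb the blue points run from 30.4 to 18.2 and the green points from 13.98 to 5.80.

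Deep peaks were narrower than peaks at protein-coding gene ends, but in the median somewhat wider than peaks between genes. Their median width was 520 bp (95% interval 510 to 530; quartiles 314 and 863 bp; range 200 to 8903 bp). Peaks in the outer ground of the same genes had a median of 569.5 bp (552 to 590), and other peaks inside protein-coding genes 614 bp. The median was 471 bp (465 to 476) between genes, 512 bp inside genes of other kinds and 1197 bp at protein-coding gene ends. Over all peaks on these chromosomes it was 594 bp. Of the deep peaks 1522 (18.6%) were wider than 1 kb, against 26.3% of all peaks on these chromosomes and 61.6% at protein-coding gene ends. The median fell with depth in the gene, from 556.5 bp at 50 to 100 kb and 525 bp at 100 to 200 kb to 437 bp beyond 200 kb. These bins hold different genes, and in the 337 genes over 400 kb the medians were 500, 490 and 437 bp. A width of exactly 200 bp, the smallest in the list, was found for 7.37% of deep peaks and 6.32% of all peaks.

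Of the 10 widest deep peaks 2 lay in Gm38510 on chromosome 1, with 8903 and 5321 bp. The others were 6063 bp in Ank3, the gene of ankyrin G, 5607 bp in Daam1, 5243 bp in Lrch1, 4539 bp in the aminopeptidase gene Aopep and 4483 bp in Lama3. The rest were 4452 bp in Cmss1, 4397 bp in the ubiquitin ligase gene Nedd4l and 4301 bp in Schip1. In all 206 deep peaks (2.52%) were over 2 kb wide, spread over 140 genes. The share of all peaks over 2 kb is not given here, so it cannot be said whether this is many or few. At 1 kb the share was 18.6% of deep peaks against 26.3% of all peaks. Aopep held 10 of them, the sphingomyelin synthase gene Sgms1 6, and Lama3 and Nav2 4 each.

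At least 1 deep peak was found in 1136 of the 1391 long genes, 81.7% (exact 95% interval 79.5 to 83.7), and none in 255. The number per gene had a median of 3 and quartiles of 1 and 8, up to 69. A total of 334 genes had 1 or 2, 289 genes had 10 or more and 81 had 20 or more. The distribution was uneven, with 205 genes holding 50% of the 8230 pairs of a gene and a deep peak. There are more pairs than peaks because 45 peaks lay deep in more than 1 long gene. Per Mb of deep ground the median gene had 18.4 deep peaks (quartiles 7.02 and 41.5).

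The 15 genes with the most deep peaks included zinc finger, neuronal and signalling genes. Zfp978 had 69 and Zfp993 56, both zinc finger genes on chromosome 4. Pde4d, a cyclic AMP phosphodiesterase gene, had 51 in 1186 kb of deep ground, Nav2 45, Auts2 44 and Etl4 44. The synaptic scaffold gene Dlg2 had 42 in 1852 kb and the ADP-ribose hydrolase gene Macrod2 42 in 1882 kb. Arhgap24 had 40, the teneurin gene Tenm2 39, and the latrophilin gene Adgrl3, the EGF family ligand gene Nrg1 and Rbms3 37 each. Pdzd2 had 33 in 269.1 kb and Cmss1 32 in 200.3 kb. Counts of long genes follow their size in part, as Dlg2 had only 22.7 per Mb and Macrod2 22.3, while Pdzd2 had 122.7.

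By density, among genes with at least 100 kb of deep ground, Zfp978 came first with 472.2 deep peaks per Mb and Gm7592 second with 216.3. Filip1l followed with 188.1, and all 22 of its deep peaks also lay in Cmss1 (159.7 per Mb), which runs over the same stretch of chromosome 16 on the opposite strand. Trabd2b, the gene of a WNT-cleaving protease, had 175.2 and Zfp993 163.8. Lmo7, which encodes a junction-associated LIM domain protein, had 152.7, Mob3b 143.6, Sgms1 143.6 and Trio, the gene of a guanine nucleotide exchange factor, 134.6.

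A pair of zinc finger genes on chromosome 4 and a pair of predicted genes on chromosome 1 are named here for their many peaks. Zfp978, Zfp993, Gm7592 and Gm38510 together held 165 deep peaks (2.02%), with a median width of 363 bp. The median was 336 bp in Zfp978 and 345 bp in Zfp993, but 449 bp in Gm38510 and 635 bp in Gm7592, and Gm38510 holds the widest deep peak. Zfp978 also had 64 peaks in its outer ground and Gm38510 37 peaks in its outer ground. The zinc finger genes belong to a large family of similar genes, and whether reads from other copies add to these peaks was not tested. Without Zfp978, Zfp993 and Gm7592 the ratio of deep to outer density was 0.793, against 0.787 with them.

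At the other end, 10 genes with much deep ground had no deep peak at all. Fstl5 had 0 in 535.7 kb, Csmd2 in 470.4 kb, Skint5 in 421.6 kb, the heparan sulfate enzyme gene Hs3st4 in 314.5 kb and the potassium channel gene Kcnn2 in 307.3 kb. Brinp3, Spock3, the neuronal cadherin gene Cdh8, the stereocilium myosin gene Myo3a and the adenylyl cyclase gene Adcy2 had none in 276.4 to 306.8 kb each. Of these 10 genes only Kcnn2 had a peak at a bound, and they had 0 or 1 peak in their outer ground.

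**Figure D3:**
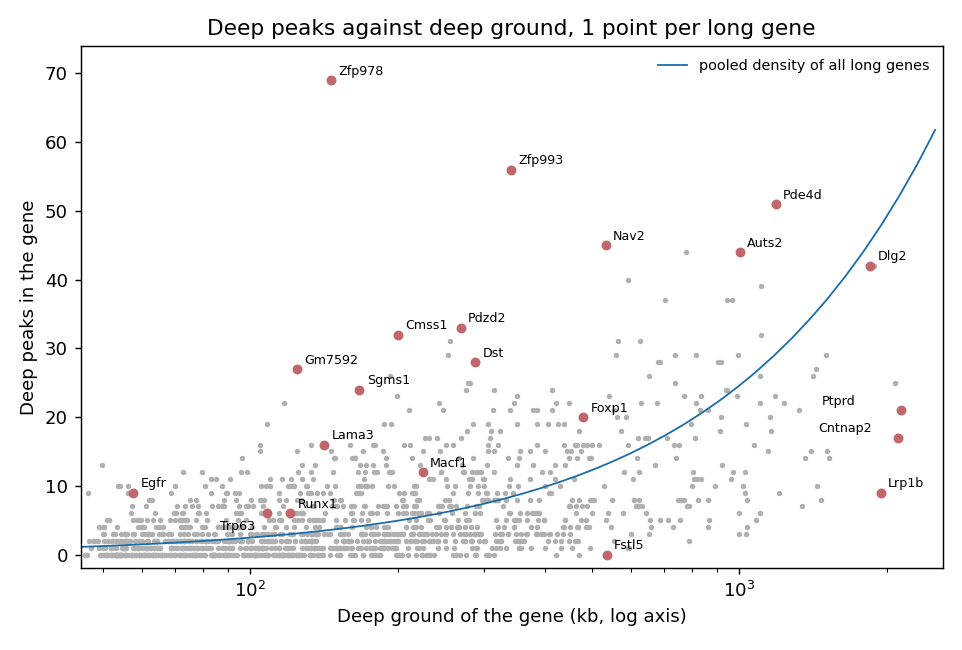
Number of deep peaks (vertical axis) against deep ground in kb (horizontal axis, log scale), 1 point per long gene, with some genes named in red. The blue line is the pooled density of all long genes; Zfp978 with 69 and Zfp993 with 56 lie far above it, and Fstl5 with 0 and Lrp1b with 9 below it.

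Genes of skin epithelial transcription factors, of epithelial adhesion and polarity, and of signalling had higher median densities of deep peaks than long genes in general, and neuronal genes a lower one. The gene lists were chosen with earlier results of these data known, so these differences only describe the lists. All 18 long genes among the skin epithelial transcription factors had a deep peak, against 81.7% of all long genes. Their median length was 315.9 kb against 248.7 kb, and 91.8% of all long genes of 250 to 500 kb had one. Their median was 45.5 deep peaks per Mb (95% interval 32.7 to 55.4) against 18.4 (17.0 to 20.6). Zfhx3 had 21 and Foxp1 20, at 37.9 and 41.7 per Mb. Of 23 genes of epithelial adhesion, junction and polarity 22 had one, with a median of 42.4 per Mb (32.9 to 69.3). Dst had 28, the receptor phosphatase gene Ptprk 22 and Ptprm 18, and Dlg1, a polarity scaffold gene, had 0. All 20 genes of signalling receptors and transducers had one, with a median of 52.4 per Mb (39.0 to 66.6). Nrg1 had 37, the WNT receptor gene Ror1 22 and the protein kinase C gene Prkce 21. That list also holds Vps13b, a trafficking gene, with 15.6 per Mb.

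The 42 genes of synaptic and neuronal adhesion all had at least 1 deep peak, but their median density was 11.8 per Mb (9.73 to 14.95). They are also the longest, with a median length of 1079 kb against 248.7 kb for all long genes. Dlg2 had 42 deep peaks, Astn2 28 and Robo2 27, while the kainate receptor gene Grik2 had 1 in 593.9 kb and the netrin receptor gene Dcc 3 in 997.6 kb. The pooled density of all genes over 1000 kb was 16.1 per Mb, and that of the neuronal list 13.0. Many of the genes over 1000 kb are themselves in the neuronal list, which also holds shorter genes. The values are thus neither separate nor matched for length, and the part of length in the low density was not tested. Of 11 muscle genes 10 had a deep peak, with a median of 8.23 per Mb (2.20 to 19.7, which takes in the 18.4 of all long genes). Sgcd had 18 and Lama2 10, and so did Pdlim5, whose 178.1 per Mb stood far above the rest of that list. Neb, the gene of nebulin, had 0, and Ttn and Ryr2 1 each.

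Transcription factors known from other lineages had a median of 21.4 per Mb, with 18 of 22 genes having a deep peak. Sox5 had 23, Bach2 21 and Tshz2 14, and Erg of endothelium, Hnf4g, Mef2c and Pax5 of B cells had 0. This list also holds the receptor gene Ror2, with 6. Broadly expressed genes of trafficking, repair and metabolism had a median of 19.97 per Mb, with 19 of 24 having one. Cdkal1 had 31 and Fhit and Immp2l 29 each, and Birc6, Herc1, Usp34, Vps13a and Vps8 had 0 in 58.4 to 117.6 kb of deep ground each.

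Immune cell genes had a median of 14.3 per Mb but a pooled density of 30.0, and a median of 40.8 when only genes over 300 kb were taken. A deep peak was found in 11 of 12, led by Inpp4b with 28 and Bach2 and Elmo1 with 21 each, and Pax5 had 0. Endothelial genes had a median of 15.5 (4 of 7), with 20 in Ptprg, 7 in Mecom and 5 in Tmtc1, and with 0 in Erg, Flt1 and Ldb2. Fibroblast and matrix genes had a median of 13.97 (10 of 12). Adamtsl1 had 17, Lama2 10 and Egfem1 8, and the fibrillin gene Fbn2 and Svep1 had 0. The 4 pigment cell genes had a median of 32.1, with 23 in Sox5, 16 in Pard3, 10 in Oca2 and 3 in Mitf, and all but Oca2 are in other lists too. Other lists share members as well, among them Bach2, Pax5, Erg, Mecom, Lama2 and Vps13b, so the lists are not separate sets of genes. These lists describe genes with very different lengths and shares of open ends, and no test of the differences was made.

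Median widths in the lists ran from 359 to 671 bp. Deep peaks in skin epithelial transcription factor genes had a median of 671 bp (197 peaks) and 22.8% were over 1 kb (exact 95% interval 17.2 to 29.3, which holds the 18.7% of all long genes). In adhesion and polarity genes the median was 612 bp (257 peaks), in signalling genes 576 bp (260 peaks) and in broadly expressed genes 555.5 bp (262 peaks). In synaptic and neuronal genes it was 392 bp, with 9.57% of 575 peaks over 1 kb (exact 95% interval 7.29 to 12.3), against 18.7% of the pairs of all long genes. Immune cell genes had the highest share over 1 kb of the lists, 28.3% of 106 peaks (19.98 to 37.9), with a median of 596.5 bp. Endothelial genes had 22.2% of 36 peaks over 1 kb and a median of 529 bp. Fibroblast and matrix genes had a median of 359 bp (52 peaks).

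**Figure D4:**
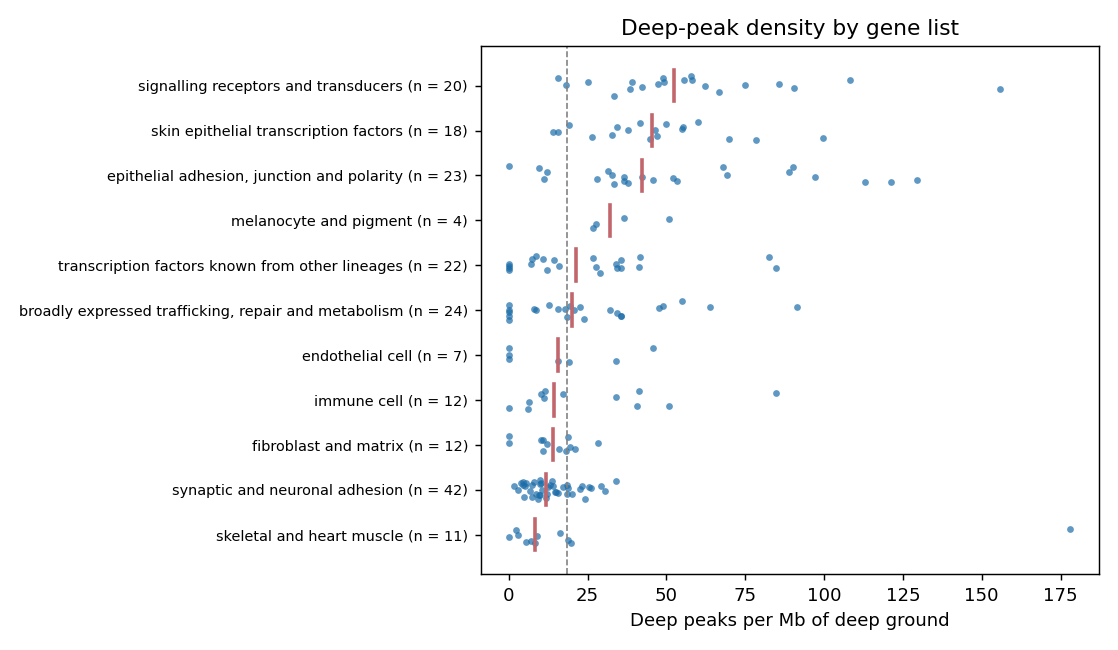
Deep peaks per Mb of deep ground (horizontal axis) for the long members of 11 gene lists, 1 point per gene, with the list median as a red bar and the median of all long genes, 18.4, as a dashed line. Signalling, skin transcription factor and adhesion genes have medians of 52.4, 45.5 and 42.4, and neuronal and muscle genes of 11.8 and 8.23.

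Among 12 chosen genes of epithelial cells, Egfr, the EGF receptor gene, was the densest, with 9 deep peaks in only 57.7 kb, or 156.0 per Mb. They lay from 16803869 to 16861633 of chromosome 11, the widest with 1861 bp from 16850207 to 16852067. Lama3, the gene of the alpha chain of laminin-332 in the epidermal basement membrane, had 16 in 141.6 kb. The last 6 of these, with midpoints from 176.2 to 193.8 kb above the lower bound, included widths of 2067, 4483, 2107 and 3328 bp. Dst had 28, of which 10 lay between 34138951 and 34167954. Macf1, which encodes a plakin linking actin and microtubules, had 12, with a median width of 1173 bp, the highest of the 12 genes.

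Trp63, the gene of p63, had 6 deep peaks of 200 to 723 bp and no peak at either bound. On chromosome 16 they began at 25746866, 25777614, 25779831, 25801579, 25834534 and 25834929. Runx1 had 6 as well, of which the peak on its internal start was the widest, and the next, from 92698552 to 92699080, followed close beside it. Nfib had 9, of 326 to 1431 bp. The hedgehog pathway gene Gli3 had 10, the polarity gene Pard3 16, Magi1 14 and Foxp1 20, in which 5 stood between 99027049 and 99033579 around the CG-rich start. Tcf7l2, a WNT effector gene, had only 3, of 574, 1056 and 201 bp. Densities ran from 28.1 per Mb in Magi1 to 156.0 in Egfr, and all 12, which are members of the lists above, lay above the median long gene.

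**Figure D5:**
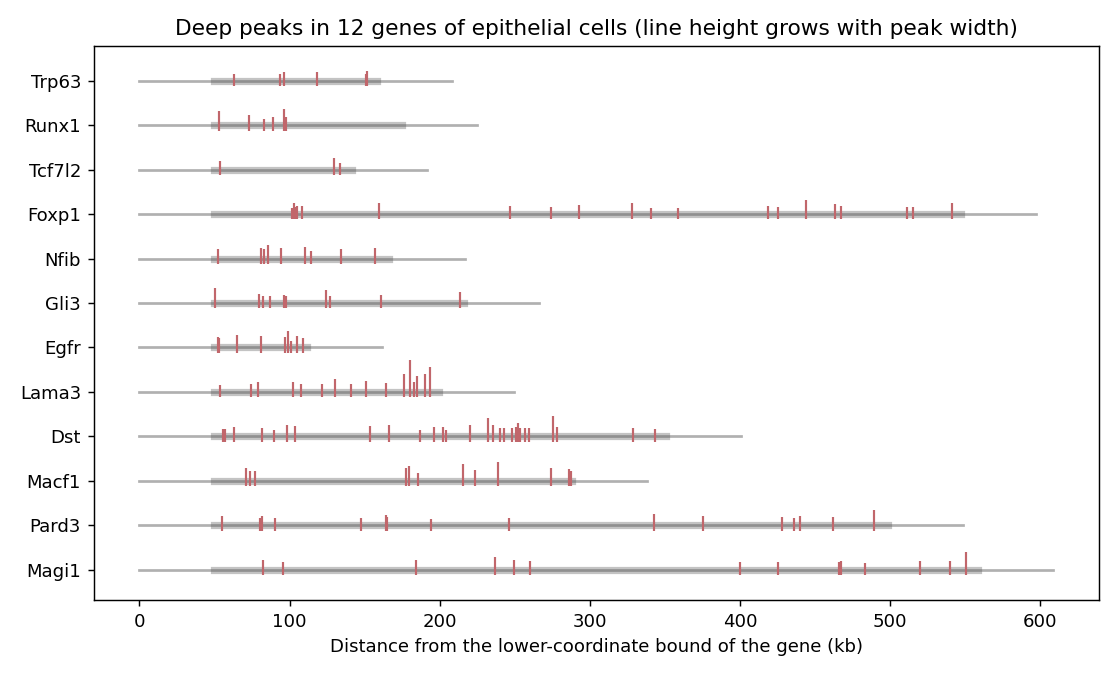
Positions of the deep peaks (red lines, taller for wider peaks) in 12 genes, against distance from the lower-coordinate bound in kb. Grey lines are the genes and the thicker stretch lies over 50 kb from both bounds; the wide peaks of Lama3 lie toward its upper bound and 10 of Dst gather from 232.2 to 259.8 kb.

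Neighbouring deep peaks of a gene had a median distance of 11.6 kb between midpoints (quartiles 3.76 and 32.6 kb, 7094 distances), and 5310 deep peaks (64.9%, exact 95% interval 63.9 to 66.0) had another of the same gene within 12500 bp. No value expected from the genes' own densities was computed, and the share moved with the distance chosen, from 43.8% within 5 kb to 78.8% within 25 kb. Joining neighbours under 12500 bp apart gave 254 runs of 5 or more peaks in 207 genes, which held 1797 gene and peak pairs, and 24 runs of 10 or more. Of the first 10 runs 3 lay in zinc finger genes, with 64 peaks in Zfp978 and with 30 and 18 in Zfp993, and the third run of all, with 27, in Gm7592. Next came 26 peaks over 120.1 kb in Cmss1, of which 22 were counted for Filip1l too. Lmo7 had a run of 16 peaks over 97.8 kb that took in all its deep peaks, the tumour suppressor gene Mcc 16 over 76.4 kb, Aopep 14 over 42.3 kb and Pdzd2 14 over 68.0 kb.

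Genes with deep peaks more often had an open end. Of the 1136 genes with a deep peak 760 (66.9%, 95% limits 64.1 and 69.6 by the exact method) had an end peak, one touching the stretch up to 1 kb around a bound, against 127 of 255 genes without (49.8%, 43.5 to 56.1), a difference of 17.1 percentage points (95% interval 10.4 to 23.8). Over all long genes the share was 63.8%. It was 59.3% in genes with 1 or 2 deep peaks, 67.1% with 3 to 9 and 75.4% with 10 or more. For genes with a known strand the difference lay at the start, where 65.1% of 860 genes with a deep peak and 48.7% of 191 genes without had a peak. At the far end of the gene the shares were 6.40% and 4.71%.

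Since a long gene has more room for a deep peak, the same shares were taken by length. In genes of 150 to 250 kb the start was open in 68.9% of 370 genes with a deep peak and 52.2% of 157 without. At 250 to 500 kb it was open in 67.8% of 323 genes and 34.4% of 32. Only 2 longer genes with a known strand had no deep peak, and both starts were closed. Turned around, the 653 genes with an open start had a median of 26.2 deep peaks per Mb and the 398 with a closed start 12.6, with median widths of 556 and 446 bp. Of 225 genes of known strand with 10 or more deep peaks, 59 had a closed start, among them Pde4d, Nav2 and Etl4.

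A small part of the deep peaks lay inside another gene too. A total of 573 (7.01%) did so, 375 of them inside a long non-coding RNA gene and 159 inside another protein-coding gene. Of the 331.1 Mb of deep ground, 313.9 Mb lay outside every other gene, so most of the ground was of that kind as well. The ground inside each kind of other gene is not given here. By chromosome the density of deep peaks ran from 20.7 per Mb of deep ground on chromosome 9 to 32.3 on chromosome 4, where Zfp978 and Zfp993 lie, with a median of 24.2.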

How the data were processed

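The authors deposited 1 list of accessible regions for the whole series, whose only unit is genome coordinates in base pairs (other, per the file itself): chromosome, 0-based start and end. The submitters' processing notes name Bowtie2, MACS2, bedtools and mm10. Tool versions, peak settings, read filters, cut-site offsets and whether reads were pooled: not given in the sources used here. Columns of per-sample values that went unused numbered 0.

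Starts were made 1-based, and midpoints were set against gene bounds of a RefSeq table (GRCm38.p6) with Python 3.11.15, pandas 2.3.3, numpy 2.4.6 and scipy 1.17.1. Gene bounds span all transcripts. Strand and start windows came from a RefSeq promoter table that held 1051 of the 1391 long genes; exons were not analysed here. Densities divide midpoints by the bases meeting the same conditions. The selection was checked on simulated regions. Intervals are 95%, exact binomial or Poisson, with a normal approximation for the density ratio and the difference in shares and order statistics for medians.

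Named genes followed a rule: the 15 with the most deep peaks, the 10 densest and the 10 largest without any, the 10 widest peaks, the 10 largest runs, 12 fixed genes, and in each of 11 lists the top 3 and up to 3 with none; other names were chosen after their values were seen. A gene that the rule names is not reported here. Members and lists were chosen with earlier results of these data known. Alternatives were other distances, lengths, windows and gaps, only wider peaks, no nested genes, and leaving out the 10 genes with the most deep peaks. The ratio without Zfp978, Zfp993 and Gm7592, the start base in place of the window and the joining of starts under 1 kb apart were chosen after seeing the data, as were the motifs, the CG counts and the genes over 400 kb.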

Additional observations from a re-analysis of the deposited data

Results flagged for a closer look

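The X chromosome lies outside the rule, but its list of regions held 184 deep peaks under the same conditions, a signal in data that the comparisons above do not use. They lay in 51 of 67 long genes, with 10.9 per Mb of deep ground (exact Poisson 95% interval 9.41 to 12.6) and a median width of 426.5 bp. Dmd, the dystrophin gene, had 19 in 2269092 bp of deep ground, Arhgap6 13, Sh3kbp1 11, Mid1 10 and Nhs 9. All 19 autosomes had a higher density, from 20.7 per Mb up. The density of all peaks on the X chromosome is not given here, so it cannot be said whether the low value is particular to deep ground.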

How the results depend on the processing

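No paired analysis was possible because the single list of regions carries no replicate or genotype, and for the same reason no replicate could be left out. The pooled density ratio, which mixes genes of different length, stayed below 1 in every setting that gave it. The end-peak difference stayed above 0 in every setting that gave it. Of 120 values under other settings 87 stayed within their interval, or within 1.5 times for counts, and 33 moved; in each case the cause was not tested beyond what the setting itself changes. At 25 kb from the bounds the median width was 532 bp, 87.7% of long genes had a deep peak and 66.2% of deep peaks had a near neighbour. At 100 kb there were 4490 deep peaks, a deep to outer ratio of 0.695, a width of 489 bp, 72.0% of genes with one, 60.7% with a neighbour and 30.7 per Mb in adhesion genes. In genes over 300 kb there were 5267, a ratio of 0.869, 492 bp, 95.3% of genes, an end-peak difference of 28.0 percentage points and 61.3% with a neighbour. Without nested genes 63.8% had a neighbour. With peaks over the list median of 587 bp only, there were 3565, a ratio of 0.706, 61.0% of genes and 53.0% with a neighbour. List medians per Mb were then 24.6 for signalling, 18.6 for skin transcription factors, 16.7 for adhesion, 8.05 for broadly expressed, 7.34 for pigment, 4.22 for other transcription factors, 3.36 for immune, 2.94 for synaptic, 2.80 for fibroblast and 0.970 for muscle genes. Without the smallest peaks the width was 555 bp. With gaps under 5 or 25 kb, 43.8% and 78.8% had a neighbour. Immune genes over 300 kb had a median of 40.8 per Mb, above the 18.4 of all long genes, against 14.3 for the whole list, below it.

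Starts chosen by the start base were open in 30.5% and joined starts in 32.9% of cases, settings chosen after seeing the data, as was leaving out Zfp978, Zfp993 and Gm7592. Depth is unknown, so it cannot be said which stretches without a peak are closed.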
